A study of Mus musculus with 4 samples.

Results

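Integrins are the receptors that hold cells to their matrix, each a pair of an alpha and a beta chain, and laminins and collagen IV are the networks of the basement membrane under every epithelium. Laminins are trimers of an alpha, a beta and a gamma chain, and collagen IV is a trimer of alpha chains whose genes sit head to head in pairs. In the kidney tubule, laminin receptors built on the beta chain of Itgb1 or Itgb4 anchor the cells to this sheet. The genes described here are the protein-coding genes on mm10 whose symbols name an integrin alpha or beta chain, a laminin chain or a collagen IV chain, chosen by symbol alone. They number 44 of 21887 protein-coding genes, with 18 integrin alpha, 9 integrin beta, 11 laminin and 6 collagen IV genes.

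Accessible chromatin was mapped by ATAC-seq, which reads where a transposase can cut DNA, in mpkCCD clone 11, a single clone of a mouse line from the cortical collecting duct. One group of 2 libraries came from cells given dDAVP, an analog of vasopressin that acts on the V2 receptor, at 0.1 nM, and the other group of 2 from cells given vehicle, and both were harvested at 30 min. Cells of both groups had been raised with serum, dexamethasone, epidermal growth factor, insulin and triiodothyronine, grown tight on filters and then switched to medium free of serum and hormones. Each library of 50000 cells was deposited as its own list of peaks. Whether libraries of a group were separate cultures is not in the labels, and their spread may thus be technical only.

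The lists held 291454 and 205771 peaks in the dDAVP libraries and 393956 and 206972 in the vehicle libraries. Peaks have positions and widths but no height, and the depth behind them is unknown, so a gene without a peak had none called and was not shown to be closed. A gene is called open below where a peak lay within 1 kb of either of its outermost ends. A region is shared where all 4 libraries had a peak in it, after merging peaks that overlapped by at least 1 bp. Of 12 principal cell markers, 8 (66.7%) were open in all 4 libraries, near the 65.0% of all protein-coding genes. The water channel gene Aqp2 was open in all 4, Aqp3, Scnn1b and Avpr2, the gene of the V2 receptor, in 2 each, and Kcnj1 in none.

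Most genes of the cell-matrix interface were open. A gene-end peak was present in all 4 libraries at 34 of the 44 genes (77.3%), against 65.0% of all protein-coding genes, and in none at 6 (13.6%), against 19.2%. Among the 13576 genes at least as long as the shortest of the 44 the share open in all libraries was 72.1%, which is closer. By library 38 and 37 of the 44 genes were open after dDAVP and 36 and 34 after vehicle. Of all protein-coding genes 74.25 and 69.39% were open after dDAVP and 78.18 and 69.99% after vehicle, a different order. The laminin genes were open without exception, 11 of 11, followed by the integrin beta genes with 8 of 9, the collagen IV genes with 4 of 6 and the integrin alpha genes with 11 of 18. At 32 of the 34 open genes the libraries shared a region at the end, while at Itgae and Lamb3 they had end peaks in different places.

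**Figure D1:**
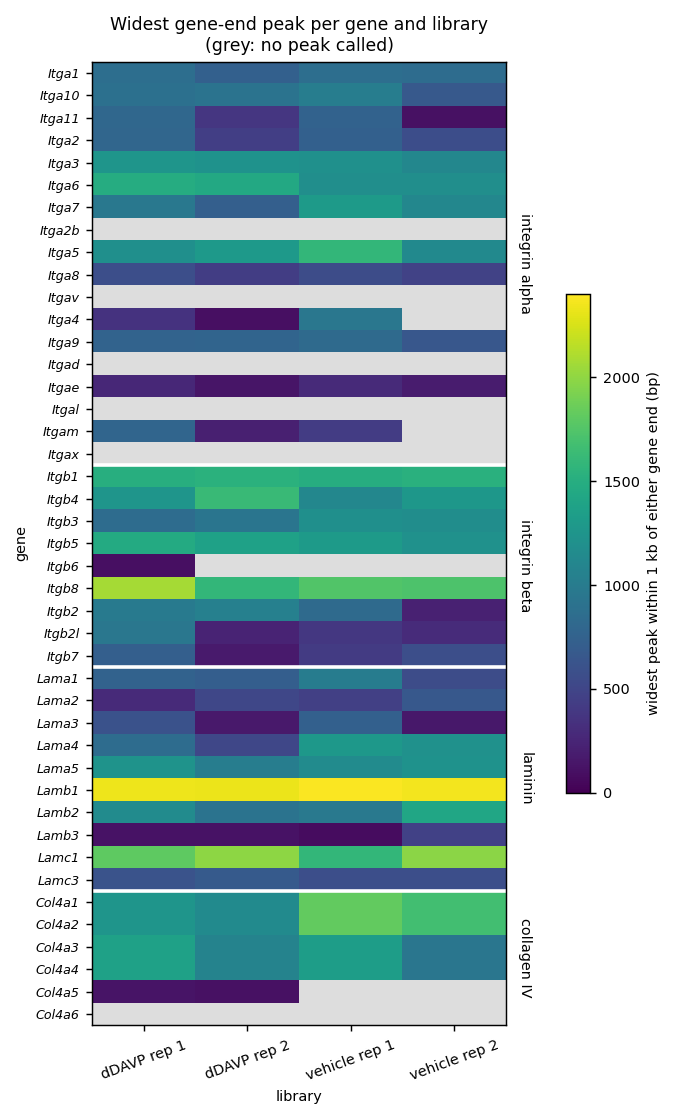
The width in bp of the widest peak within 1 kb of either end of the genes drawn (color scale, grey where no peak was called) in each of the 2 dDAVP and 2 vehicle libraries, with genes grouped by class. Lamb1 stands out in every library with 2332 to 2383 bp, and the grey cells lie mostly at the leukocyte integrin alpha genes and at Col4a5 and Col4a6.

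Among the laminins the widest gene-end peaks lay at Lamb1 and Lamc1, the beta and gamma chains that most laminin trimers share. Lamb1 (chromosome 12, 31265146 to 31329644) had peaks of 2343 and 2332 bp in the dDAVP libraries and 2383 and 2358 bp in the vehicle libraries, or 2354 ± 22.1 bp over the libraries (SD, n = 4). Its mean rank by width was matched or passed by 0.439% of all genes, and all 4 peaks lay in a single region, chr12:31263941-31266341. Lamc1 had 1804 and 1994 bp in the dDAVP libraries, against 1586 and 1983 bp in the vehicle libraries, and 3.03% of genes ranked as high or higher. Both groups overlapped at Lamc1, and at Lamb1 both dDAVP peaks were slightly narrower than both vehicle peaks.

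Lama5, the alpha chain that joins Lamb1 and Lamc1 in the mature tubule basement membrane, had peaks of 1231 and 1017 bp in the dDAVP libraries and 1154 and 1224 bp in the vehicle libraries. Lamb2, the beta chain of the glomerular basement membrane, had 1162 and 914 bp in the dDAVP libraries and 973 and 1423 bp in the vehicle libraries. The groups overlapped at both genes. These Lamb2 peaks all belonged to a region at its far end that is also an end of the neighbouring gene Usp19. Within 1 kb of the Lamb2 start no peak was wider than 777 bp in any library.

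Lama3 and Lamb3, an alpha and a beta chain of epithelial basement membranes, were open in all 4 libraries with narrower peaks. Lama3, on chromosome 18, had 607 and 167 bp in the dDAVP libraries and 738 and 153 bp in the vehicle libraries, wide in both replicate 1 libraries and narrow in both replicate 2 libraries. Lamb3 had no more than 462 bp at its outermost ends, in vehicle replicate 2, and 77 to 119 bp in the others. Its annotated starts in RefSeq lie 7641 and 7890 bp inside the gene, and a shared region, chr1:193301145-193302924, covered both of them with peaks of 1504 and 1435 bp in the dDAVP libraries and 1765 and 1259 bp in the vehicle libraries. Chromatin at the listed Lamb3 starts was thus called accessible throughout, although the gene-end measure gave it little.

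Other laminin chains had mid-sized peaks. Lama4, an alpha chain best known from endothelium, had 844 and 508 bp in the dDAVP libraries and 1278 and 1218 bp in the vehicle libraries, and these did not overlap. Lama1, the alpha chain of the early embryo, had 750 and 716 bp in the dDAVP libraries and 1005 and 557 bp in the vehicle libraries. Lama2, the alpha chain of muscle, had 290 and 507 bp in the dDAVP libraries and 457 and 657 bp in the vehicle libraries. The groups overlapped at Lama1 and Lama2. Lamc3 stayed between 574 and 677 bp in the 4 libraries, and its shared end region is also an end of Aif1l.

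Among the integrins the widest end peaks, by the mean over libraries, lay at the beta chains Itgb8 and Itgb1. Itgb8, which pairs with the alphaV chain and activates latent TGF-beta, had end peaks of 2077 and 1591 bp in the dDAVP libraries and 1750 and 1733 bp in the vehicle libraries, and 3.53% of genes ranked as high. Itgb1, the partner of most integrin alpha chains, had 1506 and 1530 bp in the dDAVP libraries and 1498 and 1525 bp in the vehicle libraries (1515 ± 15.2 bp, SD, n = 4). The Itgb1 peaks were thus nearly equal in width, and the groups overlapped at Itgb1 and at Itgb8. Itgb5, an alphaV partner that binds vitronectin, had 1471 and 1369 bp in the dDAVP libraries and 1306 and 1211 bp in the vehicle libraries, which did not overlap. Itgb4, the hemidesmosome chain, had 1248 and 1622 bp in the dDAVP libraries and 1115 and 1266 bp in the vehicle libraries, with overlap. Itgb3, the beta chain of platelets and osteoclasts, had 851 and 932 bp in the dDAVP libraries and 1193 and 1173 bp in the vehicle libraries, again without overlap.

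All 3 laminin-binding alpha chains were open in all libraries and were among the widest of their class. Itga6, the partner of Itgb4, had 1490 and 1453 bp in the dDAVP libraries and 1186 and 1190 bp in the vehicle libraries. Itga3 had 1254 and 1228 bp in the dDAVP libraries and 1201 and 1107 bp in the vehicle libraries. Peaks at both genes were wider in both dDAVP libraries than in either vehicle library. Itga7, known from muscle, went the other way, with 962 and 727 bp in the dDAVP libraries and 1312 and 1109 bp in the vehicle libraries. Itga5, the fibronectin receptor chain, had 1194 and 1302 bp in the dDAVP libraries and 1586 and 1141 bp in the vehicle libraries, which overlapped.

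The collagen-binding alpha chains Itga1, Itga2, Itga10 and Itga11 were open in all 4 libraries as well. Itga1 was the steadiest, with 864 and 740 bp in the dDAVP libraries and 866 and 844 bp in the vehicle libraries. Itga2 had 792 and 446 bp in the dDAVP libraries and 732 and 566 bp in the vehicle libraries, and Itga10 had 888 and 913 bp in the dDAVP libraries and 1021 and 671 bp in the vehicle libraries. The groups overlapped at all 3 by this measure. At Itga10 the 888, 913 and 1021 bp were at its far end and the 671 bp at its start. Within 1 kb of that start the dDAVP libraries had no more than 218 and 279 bp. The vehicle libraries had 847 and 671 bp there, without overlap. Itga11 was the least steady, with 800 and 381 bp in the dDAVP libraries and 755 and 110 bp in the vehicle libraries. Only dDAVP replicate 1 and vehicle replicate 1 had a peak over its annotated start, and the end region that all libraries shared, chr9:62782681-62783716, lay at its far end. Itga9, the relative of Itga4, had 655 to 829 bp at its outermost end in the 4 libraries, while the 1 start listed for it, 104983 bp inside, had a peak within 1 kb in vehicle replicate 1 only. Itga8, which binds nephronectin in the developing kidney, had 439 to 576 bp in the 4 libraries and no shared region within 50 kb outside the gene.

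Of the 10 genes not open in every library, 5 are leukocyte or platelet integrin alpha genes. Itgad, Itgal and Itgax, partners of the leukocyte beta chain Itgb2, were bare at both ends in all 4 libraries, as was Itga2b, the platelet alpha chain. Itgam, the fourth Itgb2 partner, had 781 and 211 bp in the dDAVP libraries and 428 and 0 bp in the vehicle libraries, all at its far end, with no peak within 1 kb of its start. Of the 8 leukocyte integrin genes 4 were open in all 4 libraries, against 15 of the 19 other integrins. Those 4 were Itgae, Itgb2, Itgb2l and Itgb7. Itgb2 had 989 and 1041 bp in the dDAVP libraries and 834 and 220 bp in the vehicle libraries, without overlap. Its shared end region, chr10:77530338-77532230, was covered over 1293 and 1502 bp in the dDAVP libraries. In the vehicle libraries 1507 and 887 bp of it were covered, so by that measure the groups overlapped. Itgb2l had 955 and 243 bp in the dDAVP libraries and 392 and 297 bp in the vehicle libraries, Itgb7 had 727 and 175 bp in the dDAVP libraries and 417 and 574 bp in the vehicle libraries, and Itgae had no more than 288 bp in any. The groups overlapped at Itgb2l and Itgb7, and all 3 shared Itgb7 end regions are also ends of Zfp740 or Rarg. Itgad, Itgal, Itgam and Itgax lie on chromosome 7, where 43.7% of genes were open in all libraries, and the part of the chromosome in their result was not tested. Of 8 leukocyte markers, a list that includes Itgam itself, 3 (37.5%) were open in all libraries, against 65.0% of all genes. Those open were Cd68, Spi1 and Lyz2, while Ptprc was among the markers with no end peak in any library. Megakaryocyte markers were open at 3 of 5, endothelial markers at 2 of 6, podocyte markers at 2 of 5 and stromal and mesangial markers at 2 of 7.

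Of these 10 genes 5 held a shared region inside. Itgad held one of 1867 bp, chr7:128186677-128188543, of which peaks covered 1842 and 1861 bp in the dDAVP libraries and 1865 bp in both vehicle libraries. By width after merging, Itga2b held the widest shared region inside any of the 44 genes, 1933 bp at chr11:102466035-102467967. Peaks covered 1472 and 1231 bp of it in the dDAVP libraries and 1826 and 1388 bp in the vehicle libraries. In every library that was less than at the Itgad region. Itgal, Itgam, Itgax and Itga4 had no shared region inside. Itga4, a fibronectin and VCAM-1 receptor chain, had end peaks of 356 and 95 bp in the dDAVP libraries and 949 and 0 bp in the vehicle libraries.

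Itgav and Itgb6 were not open at their outermost ends but had peaks at listed starts further in. The Itgav start, for the alphaV chain that pairs with Itgb3, Itgb5, Itgb6 and Itgb8 as well as Itgb1, lies 2094 bp inside the outermost end. Peaks of 1225 and 1442 bp in the dDAVP libraries and 1233 and 1229 bp in the vehicle libraries covered it, the widest of them in dDAVP replicate 2, and the groups overlapped. Itgb6, the epithelial alphaV partner, had a single end peak of 103 bp, in dDAVP replicate 1. Its second listed start, 48910 bp inside the gene, had peaks of 88 and 95 bp in the dDAVP libraries and 82 and 107 bp in the vehicle libraries just upstream of the start or reaching it.

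Of the 44 genes 29 had an entry among the RefSeq promoter windows on GRCm38.p6, with 32 starts in all. A peak lay within 1 kb of the start in all 4 libraries at 22 of 32 starts (68.8%), against 63.2% of the 21263 starts of all genes, and over the start itself at 18 (56.3%), against 51.8%. Counted by gene, 21 of 29 had such a start, against 64.5% of genes with an entry. Itga2b, Itgam, Itgax and Col4a6 had no peak within 1 kb of a listed start in any library.

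**Figure D2:**
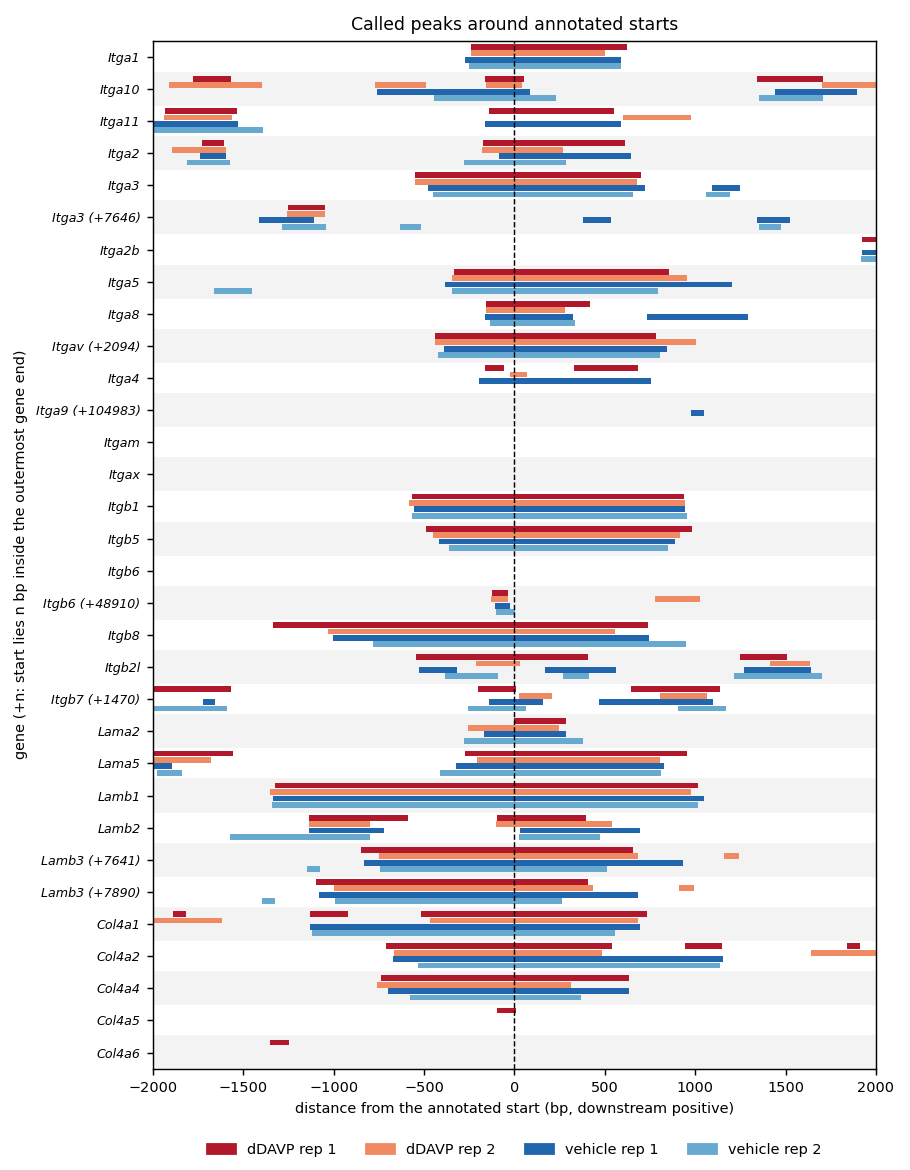
Called peaks within 2000 bp of each annotated start (horizontal axis, distance in bp, downstream positive), as 1 bar for each peak in each of the 2 dDAVP libraries (reds, upper) and 2 vehicle libraries (blues, lower). Peaks lay over the starts of Lamb1, Itgb1, Itgb5, Itgb8 and Itgav in all 4 libraries, and Itgam and Itgax had none in the window.

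Peaks covered all 300 bases of several windows in all 4 libraries, those of Itga5, Itgb5 and Itgb8 among them. The promoters of Lamb1, Itgb1 and Itgav are shown as examples of these windows. Each runs from 250 bases before the start to 50 after it in the direction of the gene, and capitals mark the matches to the 8 motifs searched on both strands, which may overlap one another. Their letters are given with their counts after the sequences. A match is a string of letters and not a bound site.
Lamb1 (chr12:31265043-31265342, plus strand): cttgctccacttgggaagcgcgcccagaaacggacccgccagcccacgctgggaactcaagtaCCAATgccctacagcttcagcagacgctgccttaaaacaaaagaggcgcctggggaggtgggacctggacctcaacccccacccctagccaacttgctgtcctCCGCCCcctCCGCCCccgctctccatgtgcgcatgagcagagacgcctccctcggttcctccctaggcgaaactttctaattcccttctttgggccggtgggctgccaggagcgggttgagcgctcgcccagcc
Itgb1 (chr8:128685404-128685703, plus strand): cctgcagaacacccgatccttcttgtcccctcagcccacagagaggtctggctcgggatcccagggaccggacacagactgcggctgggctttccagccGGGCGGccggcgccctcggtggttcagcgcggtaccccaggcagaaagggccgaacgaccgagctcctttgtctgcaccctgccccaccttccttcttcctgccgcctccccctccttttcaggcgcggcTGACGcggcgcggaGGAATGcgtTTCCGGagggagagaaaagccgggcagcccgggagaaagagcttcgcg
Itgav (chr2:83724147-83724446, plus strand): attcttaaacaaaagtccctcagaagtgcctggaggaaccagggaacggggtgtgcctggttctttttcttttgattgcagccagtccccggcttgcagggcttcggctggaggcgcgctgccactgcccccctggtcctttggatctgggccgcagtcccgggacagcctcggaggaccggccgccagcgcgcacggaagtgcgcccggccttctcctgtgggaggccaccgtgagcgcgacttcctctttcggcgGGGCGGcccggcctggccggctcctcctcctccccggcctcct
Lamb1 has 2 GC boxes on the minus strand and a CCAAT box. Itgb1 has a GC box, a short CRE, a TEAD site and an ETS site, and no other of the 32 windows held more than 3 kinds of match. Itgav has a GC box just after its start.

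Over the 32 windows a full CRE (TGACGTCA), the site bound by the cAMP-responsive factor CREB, was in none, against 2.23% of all 21263 windows. A short CRE, the letters TGACG that also open the full one, was in 6 (18.8%), those of Itgb1, Lama5, Lamb2, Col4a5, Itga9 and Itgb6, against 23.6%. A GC box, read as GGGCGG, was in 16 (50.0%), against 46.2%. An AP-1 site, read as TGANTCA, was in 3 (9.38%), against 6.99%, namely those of Itga3, Itga9 and Itgax. A CCAAT box, searched by those letters, was in 7 (21.9%), against 38.2%. An ETS site, read as CCGGAA, was in the windows of Itga3 and Itgb1 (6.25%), against 18.7%. A TEAD site, read as GGAATG, was in 4 (12.5%), against 13.6%. A TATA box, read as TATAAA, was in none, against 12.6%. With 32 windows, 1 more or fewer moves these shares by a few points, and no test was made.

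Base composition went with peaks at the starts, as it did for genes in general. The median G and C content was 62.0% in the 18 windows with a peak over the start in all libraries and 50.3% in the 5 with no peak within 1 kb, against 62.7% and 43.7% for the same classes over all genes. The ranges, 50.3 to 74.0% and 48.3 to 56.0%, overlapped. Lama2 and Lamb3 were exceptions with few CpG sites and a peak in every library. Their CpG observed over expected ratios were 0.0527 for Lama2 and 0.0761 and 0.197 for Lamb3. The median ratio of the 18 covered windows was 0.563, lower than the 0.796 of covered windows over all genes.

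The collagen IV genes lie head to head in 3 pairs, and in these cells the pairs differed. Col4a1 and Col4a2, the chains of the network found in all basement membranes, overlap by 85 bp on chromosome 8, and 1 peak spanned both facing ends in every library. It measured 1252 and 1153 bp in the dDAVP libraries and 1827 and 1675 bp in the vehicle libraries, narrower in both dDAVP libraries. In dDAVP replicate 1 a separate peak of 207 bp followed on the Col4a2 side, ending 1108 bp from the midpoint. The spanning peaks of the vehicle libraries ended at 1110 and 1098 bp on that side. Col4a4 and Col4a3, chains of the glomerular and part of the tubular basement membrane, overlap by 114 bp on chromosome 1. Their spanning peak measured 1369 and 1073 bp in the dDAVP libraries and 1332 and 945 bp in the vehicle libraries, which overlapped.

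Between Col4a6 and Col4a5 on the X chromosome, which are 1274 bp apart, no peak spanned the ends in any library. The 1 peak within 10 kb of the midpoint, 104 bp long and over the Col4a5 start, was called in dDAVP replicate 1. Col4a6 was bare at both ends in all 4 libraries. Col4a5, the third chain of the Col4a3 and Col4a4 trimer and the gene most often mutated in Alport syndrome in humans, had its only other end peaks at its far end, 127 and 107 bp wide in the dDAVP libraries and absent from both vehicle libraries. By width after merging, Col4a5 also held the second widest shared region inside any of the 44 genes, chrX:141566799-141568693. Peaks covered 1784 and 1755 bp of that region in the dDAVP libraries and 1609 and 1880 bp in the vehicle libraries. On the X chromosome 29.8% of all genes were open in all libraries, and its part in the result for this pair was not tested.

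**Figure D3:**
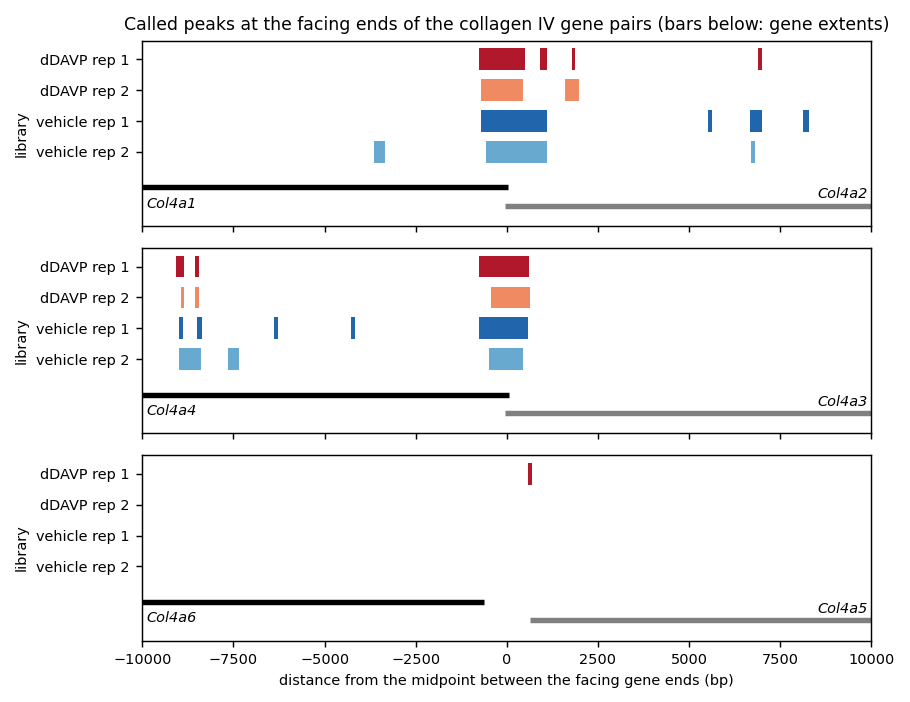
Called peaks within 10000 bp of the midpoint between the facing ends of each collagen IV gene pair (horizontal axis, distance in bp), in the 2 dDAVP and 2 vehicle libraries, with gene extents drawn below as bars. A peak of 945 to 1827 bp sits on the midpoint of Col4a1 and Col4a2 and of Col4a4 and Col4a3 in all 4 libraries, and none on that of Col4a6 and Col4a5.

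The windows at the facing starts are shown because they are where the pairs differ, and the Col4a1 and Col4a2 windows read the same stretch from opposite strands over part of their length.
Col4a1 (chr8:11312777-11313076, minus strand): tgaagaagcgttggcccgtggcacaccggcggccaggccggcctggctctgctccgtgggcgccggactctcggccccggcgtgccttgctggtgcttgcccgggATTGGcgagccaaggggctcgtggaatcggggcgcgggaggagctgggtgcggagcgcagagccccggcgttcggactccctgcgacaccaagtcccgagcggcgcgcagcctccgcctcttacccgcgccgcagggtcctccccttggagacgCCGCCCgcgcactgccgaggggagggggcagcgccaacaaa
Col4a2 (chr8:11312555-11312854, plus strand): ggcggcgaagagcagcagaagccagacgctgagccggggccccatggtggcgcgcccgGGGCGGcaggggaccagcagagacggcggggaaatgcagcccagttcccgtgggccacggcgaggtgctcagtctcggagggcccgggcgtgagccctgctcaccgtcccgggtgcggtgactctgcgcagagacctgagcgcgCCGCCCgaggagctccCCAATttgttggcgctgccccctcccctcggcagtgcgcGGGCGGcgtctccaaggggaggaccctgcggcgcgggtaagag
Col4a4 (chr1:82586800-82587099, minus strand): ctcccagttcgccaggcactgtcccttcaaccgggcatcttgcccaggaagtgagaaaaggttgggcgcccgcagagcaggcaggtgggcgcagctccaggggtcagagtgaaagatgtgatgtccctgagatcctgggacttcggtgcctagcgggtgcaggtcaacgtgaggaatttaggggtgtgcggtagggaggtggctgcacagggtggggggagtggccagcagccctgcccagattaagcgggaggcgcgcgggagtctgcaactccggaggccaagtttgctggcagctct
Col4a5 (chrX:141475169-141475468, plus strand): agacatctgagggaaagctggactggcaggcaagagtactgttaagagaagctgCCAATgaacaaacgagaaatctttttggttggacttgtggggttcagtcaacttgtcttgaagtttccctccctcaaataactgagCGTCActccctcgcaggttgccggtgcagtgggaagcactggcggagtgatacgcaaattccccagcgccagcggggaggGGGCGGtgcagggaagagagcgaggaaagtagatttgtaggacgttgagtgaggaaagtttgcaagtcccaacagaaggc
Col4a6 (chrX:141474027-141474326, minus strand): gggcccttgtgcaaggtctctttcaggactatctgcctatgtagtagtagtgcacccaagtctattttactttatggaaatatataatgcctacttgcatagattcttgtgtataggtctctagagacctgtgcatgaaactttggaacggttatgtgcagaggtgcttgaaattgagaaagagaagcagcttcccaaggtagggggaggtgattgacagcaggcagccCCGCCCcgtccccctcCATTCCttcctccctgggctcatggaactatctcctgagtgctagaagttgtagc
Peaks covered all 300 bases of the first 3 windows in all 4 libraries. Of the Col4a5 window 104 bases were covered in dDAVP replicate 1 and none in the others, and of the Col4a6 window none in any library. G and C content was 74.0% at Col4a1, 73.7% at Col4a2 and 63.3% at Col4a4, against 52.7% at Col4a5 and 48.3% at Col4a6. CpG sites numbered 37, 33 and 14 in the first 3 windows and 11 and 3 in the last pair. Col4a4 held none of the 8 motifs although its window was covered throughout, and Col4a6 held a GC box and a TEAD site although it was not.

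Inside the genes, away from the ends, 37 of the 44 (84.1%) held a shared region, against 41.1% of all protein-coding genes. The 44 genes are long, with a median of 68.0 kb against 17.2 kb, and per length they were close to the rest, with 34.5 shared regions per Mb inside against 33.0 per Mb over all genes. Among genes at least as long as the shortest of the 44 the share with one was 60.6%. The density was 92.4 per Mb in the integrin beta genes, 31.0 in the integrin alpha genes, 30.4 in the laminin genes and 16.4 in the collagen IV genes.

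Itgb5 (chromosome 16, 33829665 to 33949338) had the most shared regions inside, 21, a number that 141 of all genes reached. Per length Itgb7, Itga3 and Itga5 were higher, with 25.9, 19.8 and 19.5 per 100 kb against 17.9 at Itgb5. Itgb5 had 42 and 38 peaks inside in the dDAVP libraries and 57 and 35 in the vehicle libraries. Its widest shared region inside, chr16:33891098-33892933, was covered over 1732 and 1836 bp in the dDAVP libraries and 1761 and 1374 bp in the vehicle libraries. Itgb6 had 10 shared regions inside although its ends had a peak in 1 library only, with 16 and 14 peaks in the dDAVP libraries and 25 and 15 in the vehicle libraries. Itgb4 and Itgb7 had 4 each.

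Lamb1 led the laminins with 10 shared regions inside, and 31 and 17 peaks in the dDAVP libraries and 29 and 21 in the vehicle libraries. Its widest, chr12:31270594-31272215, was covered by peaks over 1403 and 1173 bp in the dDAVP libraries and 1227 and 1233 bp in the vehicle libraries. Lama2, the longest of the 44 genes at 635.9 kb, had 7, or 1.10 per 100 kb, and Lamc3 had 6. Among alpha chains Itga11 had 8, Itga3 had 6 and Itga6 had 5. Among collagen IV genes Col4a4 had 6, Col4a2 had 5 and Col4a1 had 3. Only Itga2, Itga4, Itgal, Itgam, Itgax, Itgb8 and Col4a6 had none inside, and Itgb8 is the 1 of them with a wide peak at its start. Counted once for each gene, 2 of the 154 shared regions inside were at an end of another gene, Pelo in Itga1 and Haspin in Itgae.

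**Figure D4:**
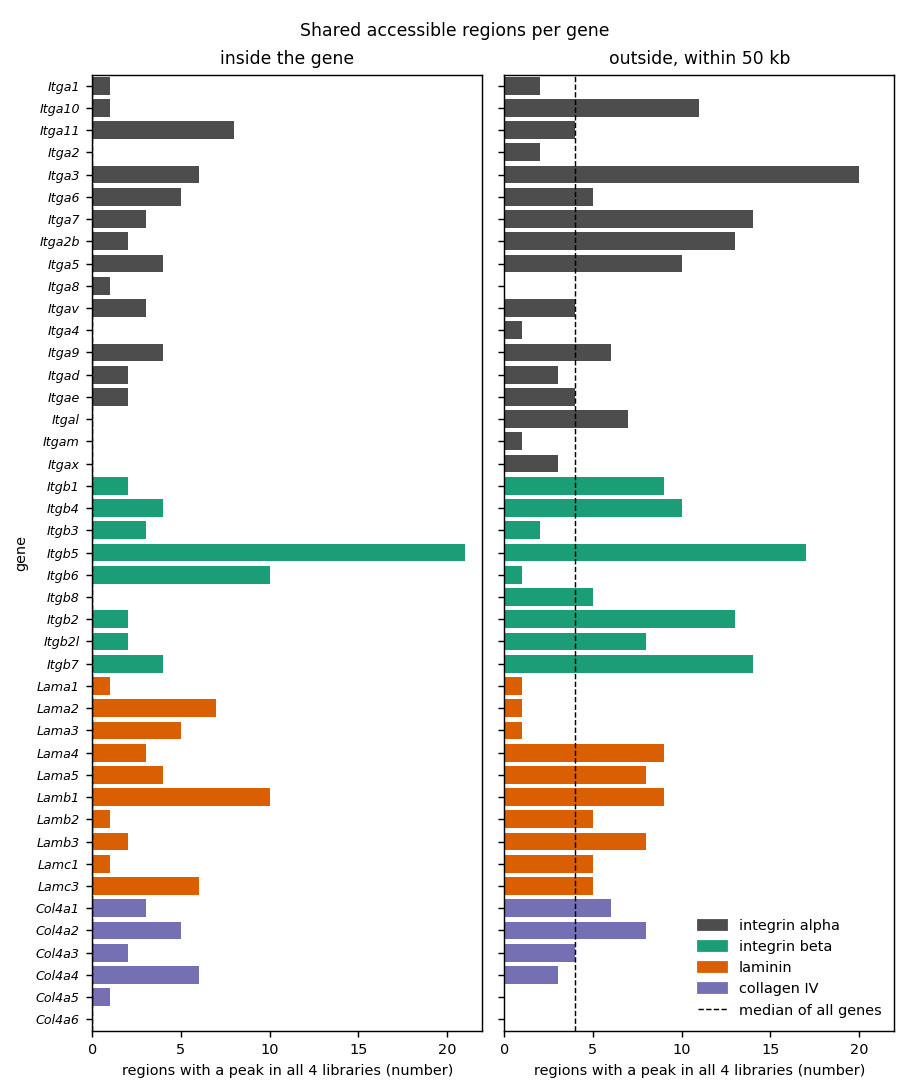
Number of regions with a peak in all 4 libraries inside the genes drawn (left) and outside it within 50 kb (right), colored by class, with the median of all genes dashed. Itgb5 reaches 21 inside, and Itga3 reaches 20 outside, where the median of all genes is 4.

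Around the genes, within 50 kb outside, the median number of shared regions was 5 with a range of 0 to 20, and the median over all genes was 4. Itga3 had the most, 20, a number that 0.685% of genes reached, with 37 and 31 peaks in the dDAVP libraries and 38 and 24 in the vehicle libraries. Of those 20 regions 7 were at ends of the neighbours Pdk2, Ppp1r9b and Samd14. Itgb5 had 17, Itga7 and Itgb7 had 14 each, Lama4 and Lamb1 had 9 each, Col4a2 had 8 and Col4a1 had 6. Itga8, Col4a5 and Col4a6 had none. Over all 44 genes 78 of 260 distinct regions outside were at an end of another gene. Shared regions were widest at the ends and narrowest inside. The median width of a shared region was 1272 bp at the ends, 737.5 bp inside and 934 bp outside.

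The other genes of cell-matrix adhesion were open at least as often. Of 24 genes of the integrin adhesion machinery, which tie integrins to actin and signal from them, 23 (95.8%) were open in all 4 libraries and Lims2 was the exception. By mean rank of width over the libraries the first were the actin crosslinker gene Actn1, the focal adhesion genes Zyx and Vcl and the kinase gene Src, while Tln2 had a higher mean width than Vcl. Actn1 had 2148 and 2114 bp in the dDAVP libraries and 1988 and 2086 bp in the vehicle libraries. Of 20 other basement membrane and matrix receptor genes 18 (90.0%) were open, all but Col15a1 and Sparc. By mean rank of width the first were the syndecan gene Sdc1, the netrin gene Ntn4, Col18a1 and the laminin receptor gene Bcam, and Dag1 had a slightly higher mean width than Bcam. Sdc1 had 2352 and 2298 bp in the dDAVP libraries and 2395 and 2289 bp in the vehicle libraries. These lists were picked by function and not drawn at random, and no test was made of their shares.

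The comparison the design implies is dDAVP against vehicle at 30 min. At the 44 genes no difference larger than the spread between libraries was found in the number of peaks. Each library pools cells, so more cells with a site open and a site more open in each cell cannot be told apart. Peaks in or within 50 kb of them numbered 1237 and 884 in the dDAVP libraries and 1684 and 896 in the vehicle libraries, and vehicle replicate 1 stood highest with the groups overlapping. The means were 1060 ± 250 after dDAVP and 1290 ± 557 after vehicle (SD, n = 2 each), a ratio of 0.822, with a two-sided exact permutation p of 0.667, where the smallest that 2 against 2 libraries can give is 1 in 3. Without vehicle replicate 1 the ratio was 1.18. As a share of each library the same peaks made up 0.424 and 0.430% after dDAVP and 0.428 and 0.433% after vehicle, so their number moved with the length of the lists.

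Widths at gene ends were compared in the same way, a measure added after the data had been seen. Of the 34 genes open in all libraries, 5 (14.7%) had a wider end peak in both dDAVP libraries than in either vehicle library, against 14.9% of the 14219 genes open in all libraries. They were Itga3, Itga6, Itgb5, Itgb2 and Lamc3, though at Itgb2 the groups overlapped in the bases covered in its shared end region. A narrower peak in both was found at 6 (17.6%), against 14.4%, namely Col4a1 and Col4a2 with their common peak, Itga7, Itgb3, Lama4 and Lamb1. Both shares lie near those of all genes.

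Few regions at the 44 genes followed the treatment. Of 2346 regions in or within 50 kb of them 37 (1.58%) were dDAVP-only, with peaks in both dDAVP libraries and none after vehicle, against 1.61% of regions near all genes. The reverse pattern was found at 67 (2.86%), against 3.34%, and 437 (18.6%) were shared, against 16.7%. With lists of equal length the counts were 40 dDAVP-only and 49 vehicle-only. The dDAVP-only regions lay at 23 genes and the vehicle-only regions at 28, with 17 genes holding both kinds. Both counts were higher with any library left out, since the pattern then needs fewer peaks to agree. The dDAVP-only count was 188 and 346 without dDAVP replicate 1 and 2, and 114 and 57 without vehicle replicate 1 and 2. The vehicle-only count was 154 and 112 without dDAVP replicate 1 and 2, and 229 and 744 without vehicle replicate 1 and 2. Both kinds were narrow, with median widths at the gene of 229.5 bp for those inside after dDAVP and 317.5 bp after vehicle, where shared regions inside, each counted once, had 719 bp. Outside the genes the medians were 437 bp for dDAVP-only and 345 bp for vehicle-only regions, against 931 bp for shared ones. A shared region merges peaks of 4 libraries and a treatment-specific one of 2, so these widths were not measured alike.

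Treatment-specific regions at a gene end were found at Itgb2l and Col4a5, both dDAVP-only. At Itgb2l, an Itgb2-like gene, chr16:96422912-96423114 was covered over 86 and 203 bp in the dDAVP libraries and not at all in the vehicle libraries, at the far end of the gene. The Col4a5 one, chrX:141689945-141690101, was given above. The 4 widest treatment-specific regions inside genes were all vehicle-only. With the bases covered by peaks, they lay in Lama2 (chr10:27188402-27189270, no peak after dDAVP, 435 and 503 bp after vehicle), Itga11 (chr9:62743751-62744599, none after dDAVP, 849 and 299 bp after vehicle), Itgb5 (chr16:33901848-33902633, none after dDAVP, 786 and 756 bp after vehicle) and Itgae (chr11:73110330-73111098, none after dDAVP, 564 and 401 bp after vehicle). Itga11 also held dDAVP-only regions, the widest of them 516 bp.

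The length covered by peaks in each gene with 1 kb either side was compared with limma on log2 of the covered bp plus 100, after quantile normalization, over 17616 genes. No gene passed an adjusted p of 0.05 (0%, Benjamini-Hochberg over all genes), and 403 (2.29%) had an unadjusted p under 0.05, of which 1 was among the 44. The log2 differences, dDAVP minus vehicle, ran from -0.62 to 1.78 over the 44 genes, with a median of 0.01 against 0.04 over all genes.

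That 1 gene was Itgam, with 614 and 663 bp covered in the dDAVP libraries and 428 and 0 bp in the vehicle libraries. Both dDAVP libraries lay above both vehicle libraries, and its log2 difference was 1.78 with a standard error of 0.36 (limma, unadjusted p = 0.00323, adjusted p = 1). It rests on a single peak at the far end in each of 3 libraries, a peak inside the gene in dDAVP replicate 2 and 0 bp in vehicle replicate 2, and the difference was 2.61 with 20 bp added and 0.85 with 500 bp added. With 50 kb either side of Itgam it was 0.49. Col4a6 came next, with 418 and 166 bp covered in the dDAVP libraries and 488 and 0 bp in the vehicle libraries (log2 difference 0.78, SE 0.39, limma adjusted p = 1). The groups overlapped in bp and did not after normalization. Without vehicle replicate 2 the Col4a6 difference was 0.29, and it was 1.36 with 20 bp added and 0.31 with 500 bp added.

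Of the 5 lowest p values 3 were in the other direction. Itga7 had 4652 and 2123 bp covered in the dDAVP libraries and 6196 and 4834 bp in the vehicle libraries (log2 difference -0.62, SE 0.38, limma adjusted p = 1). The Itga7 difference was -0.21 without dDAVP replicate 2 and -1.02 without dDAVP replicate 1. Itgb8 had 2392 and 2018 bp in the dDAVP libraries and 4133 and 2531 bp in the vehicle libraries (log2 difference -0.36, SE 0.27, limma adjusted p = 1). Itga10 had 2163 and 2156 bp in the dDAVP libraries and 3705 and 2746 bp in the vehicle libraries (log2 difference -0.37, SE 0.29, limma adjusted p = 1). All 3 had less covered length in both dDAVP libraries than in either vehicle library. With 50 kb either side the differences were smaller, at -0.27 for Itga7, -0.01 for Itgb8 and -0.02 for Itga10. The standard errors over the 44 genes ran from 0.27 to 0.91.

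**Figure D5:**
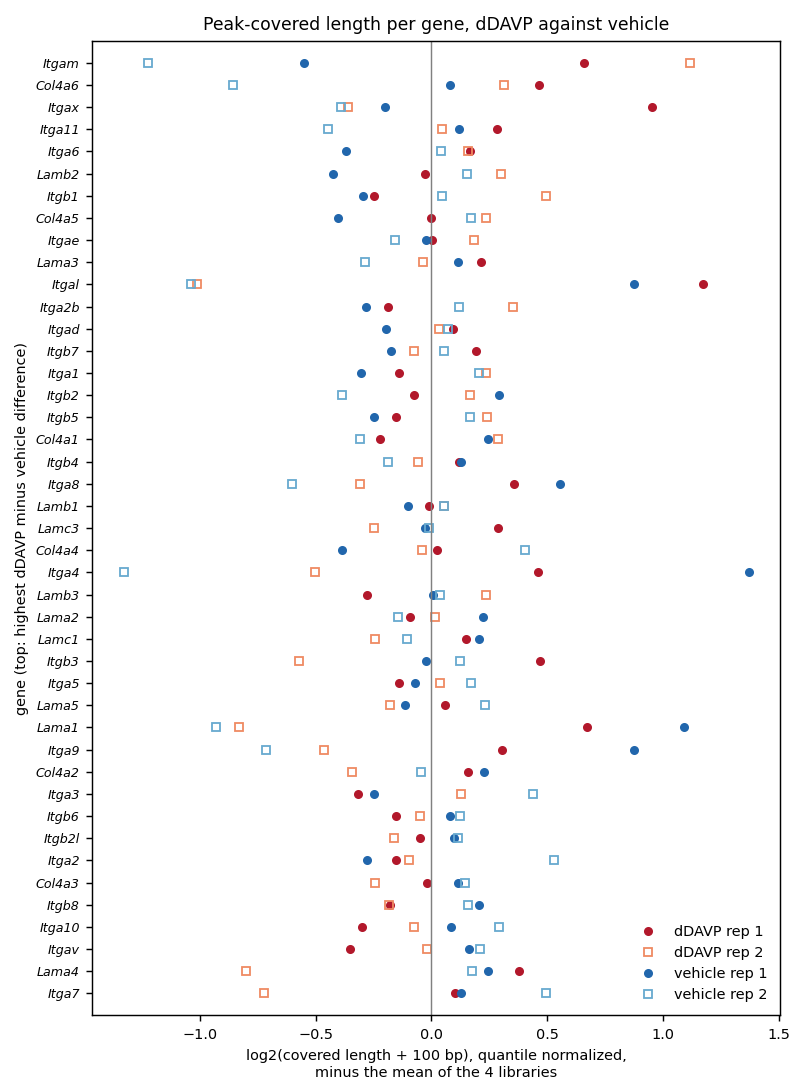
Peak-covered length of the genes drawn with 1 kb either side, as quantile normalized log2(bp + 100) minus the mean of the 4 libraries, with dDAVP libraries in reds and vehicle libraries in blues and genes ordered by the dDAVP minus vehicle difference. The points of both groups mix at most genes, and Itgam at the top, with a log2 difference of 1.78, has both dDAVP libraries to the right of both vehicle libraries.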

How the data were processed

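The authors deposited 1 list of ATAC-seq peaks per library, with chromosome, start and end positions on mm10 in 3 columns and no score, signal or read count. Tools named in the submitters' processing notes were MACS2, bedtools, Picard, SAMtools, Bowtie2 and cutadapt, with versions, order and settings not given in the sources. Longer lists may reflect depth or threshold, and the lists cannot separate these. Genes and their outermost ends came from the RefSeq table of GRCm38.p6, and starts, also in the alternative that counts the annotated start alone, from the RefSeq promoter windows.

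Peaks were intersected with windows of 1 kb around gene ends, with the gene body and with 50 kb outside it, and merged over libraries at an overlap of 1 bp. Totals were compared by exact permutation of the libraries, and covered length (log2 of bp plus 100, quantile normalized, mean of 200 bp or more) by limma 3.58.1 in R 4.3.3, 2 libraries against 2, over all genes with Benjamini-Hochberg adjustment at 0.05. Other steps used Python 3.11.15, numpy 2.4.6, pandas 2.3.3, SciPy 1.17.1 and matplotlib 3.10.9, and the steps were tested on simulated data. The text names all collagen IV genes, all genes without an end peak in every library, per class up to 4 with the widest end peaks, up to 3 with the most shared regions inside and 2 outside, the 5 lowest limma p values and up to 6 treatment-specific regions, gene ends first; the other genes named for their place in a family or separation of widths were chosen after their values were seen. A few items, 1 of the 44 genes among them, are counted in the totals but not reported here by name or drawn. The members, the 9 gene lists and the 8 motifs were chosen with earlier results of these data known.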

Additional observations from a re-analysis of the deposited data

How the results depend on the processing

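The 34 genes open in all libraries numbered 34 to 36 when 1 library was left out. That count cannot fall when fewer libraries need a peak. It fell to 27 with the wider peaks of each library and to 33 with lists of equal length. Windows of 0.5 and 2.5 kb gave 31 and 37 open genes. The 37 genes with a shared region inside numbered 36 to 39 with 1 library left out. They numbered 32 with the wider peaks, 35 with lists of equal length and 29 where a library had to cover 50% of the region. With the annotated start alone, 21 of the 29 genes with an entry were open. The median of 5 shared regions outside was 5.5 to 6 with 1 library left out. It was 3 with the wider peaks of each library, 2 within 25 kb, 10 within 100 kb, 2 outside all genes and 2 where a library had to cover 50% of the region, as narrower criteria and distances give. The 37 dDAVP-only regions became 14 with the wider peaks, 40 with lists of equal length and 57 to 346 with 1 library left out, and the 67 vehicle-only regions 47, 49 and 112 to 744. The comparison of end widths, with its alternatives, was chosen after seeing the data, and with 0.5 kb windows 3 genes in place of 5 had wider end peaks in both dDAVP libraries. The ratio of peaks, 0.822, was 1.01 (exact permutation p = 1) with lists of equal length and 0.630 to 1.18 with 1 library left out, above 1 without vehicle replicate 1. limma called 0 genes under every setting, with 248 to 1246 genes at an unadjusted p under 0.05. Nothing in the labels says that a replicate number marks a shared batch. Deviations of libraries with the same number correlated at 0.351 over only 2 pairs. With the replicate block the ratio was 0.735 in replicate 1 and 0.987 in replicate 2, and limma called 0 genes. Unnormalized covered lengths moved the median log2 difference of all genes to -0.12. Peak lists give no depth, and 2 libraries a group cannot reach an exact p under 1 in 3.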

Other observations

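Of 13 genes for folding, hydroxylating, exporting and crosslinking collagen, 10 (76.9%) were open at an end in every library, against 65.0% of all protein-coding genes. The prolyl hydroxylase gene P3h2 had the widest by the mean over libraries, 1209 and 1460 bp in the dDAVP libraries and 1478 and 1465 bp in the vehicle libraries, followed by P4hb with 1364 and 1465 bp in the dDAVP libraries and 1243 and 1245 bp in the vehicle libraries. The groups did not overlap at either gene, with narrower peaks in both dDAVP libraries at P3h2 and wider ones at P4hb. At P3h2 the nearest widths were 1460 bp after dDAVP and 1465 bp after vehicle. Of all genes open in every library 14.4% were narrower in both dDAVP libraries and 14.9% wider, and no test was made. The lysyl hydroxylase gene Plod2 and the lysyl oxidase gene Loxl2 had no end peak in any library. Pxdn, the peroxidasin that forms the sulfilimine crosslink of collagen IV, lacked one in dDAVP replicate 2, yet held 19 shared regions inside and 20 within 50 kb outside.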
